A study of Mus musculus with 4 samples.

Results

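Wnt ligands, their receptors, the R-spondins and 4 genes that Wnt signalling induces were examined in male mouse testes on postnatal day 9, in 1 control array and 3 arrays from testes with a conditional Dmrt1 knockout. The 42 genes were chosen by name: 18 Wnt ligands, 12 receptors (the Frizzled family with Lrp5 and Lrp6), 4 R-spondins, 4 genes of the R-spondin receptor complex and 4 feedback targets. Each was matched to the array's RefSeq transcripts by symbol, and 38 of the 42 were measured, each by 1 transcript, among 17277 named genes and 25631 transcripts. Fzd9, Rspo4, Lgr4 and Znrf3 were not analysed here. The control lacked Cre and the knockouts carried it, per the labels, and all 4 bear the name of the DHH-cre line, whose promoter, that of Desert hedgehog, is active in Sertoli cells. The labels name neither the targeted allele nor the strain, and do not say whether an array came from 1 animal or from pooled testes, so a p-value here reflects only how much these arrays vary, which may be technical. With 1 control against 3 knockouts, an exact two-sided permutation test of a single gene cannot go below p = 0.25, so the tests below come from limma fitted across all transcripts.

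Wnt proteins are secreted lipid-modified ligands that bind a Frizzled receptor together with Lrp5 or Lrp6 and so stabilise beta-catenin, which then activates target genes with the Tcf/Lef factors. R-spondins bind Lgr receptors and remove Znrf3, an enzyme that clears Frizzled proteins from the cell surface, and so make cells more responsive to Wnt. In the fetal gonad Wnt4 and Rspo1 are known as genes of the ovarian pathway, and Dmrt1 encodes a transcription factor that maintains male identity in Sertoli cells, the supporting cells of the seminiferous tubules.

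Values are log2 of the deposited intensity, and a difference is the mean of the 3 knockout arrays minus the control, with the standard error (SE) of the limma fit. Dmrt1 (NM_015826) stood at 14.16 in the control and at 13.23, 13.38 and 13.66 in the knockouts, a difference of -0.73 ± 0.27 that did not pass the test. The position of its probes relative to the deleted part is not known here, and germ cells also express Dmrt1, so this value does not check the labels. Knockout replicate 3 was more often the closest to the control than replicates 1 and 2. Among the 38 measured members, replicate 3 was the knockout array closest to the control for 19, against 9 for replicate 1 and 10 for replicate 2, and over all transcripts the shares were 39.8%, 31.5% and 28.8% in that order. For the members on which replicate 3 bears most, the value without it is given as well.

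No member of the Wnt family was called as changed in the knockout testes. Of the 38 measured members, 0 passed limma's test in either direction at an adjusted p under 0.05, where 0.499% of all transcripts were called lower and 0.156% higher. At an unadjusted p under 0.05, 1 member was lower (Rspo2) and 2 were higher (Rspo3 and Wnt3), against 3.27% and 3.15% of all transcripts. The lowest adjusted p of any member was 0.374, for Rspo3. Of the members, 10 had all 3 knockout arrays below the control and 10 had all 3 above it, or 26.3% each, near the 24.1% and 25.6% of all transcripts that did so. No member was at least 2-fold lower or higher in every knockout array, which 0.753% and 0.398% of all transcripts were.

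Most differences of the members were small. Their median was -0.08, against 0.00 over all transcripts, and the median size was 0.19, against 0.20. For 32 members the difference was under 0.5 in size (84.2%, against 87.7% of all transcripts). The 95% interval of the difference lay inside -1 to 1 for 28 members (73.7%, against 75.2% of all transcripts), so for these a 2-fold change was outside the interval of the fit. The interval reached a 2-fold change for the other 10, and for those an absence of calls does not show an absence of change. Every interval takes its spread from the knockout arrays and assumes that the lone control varies as they do.

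**Figure D1:**
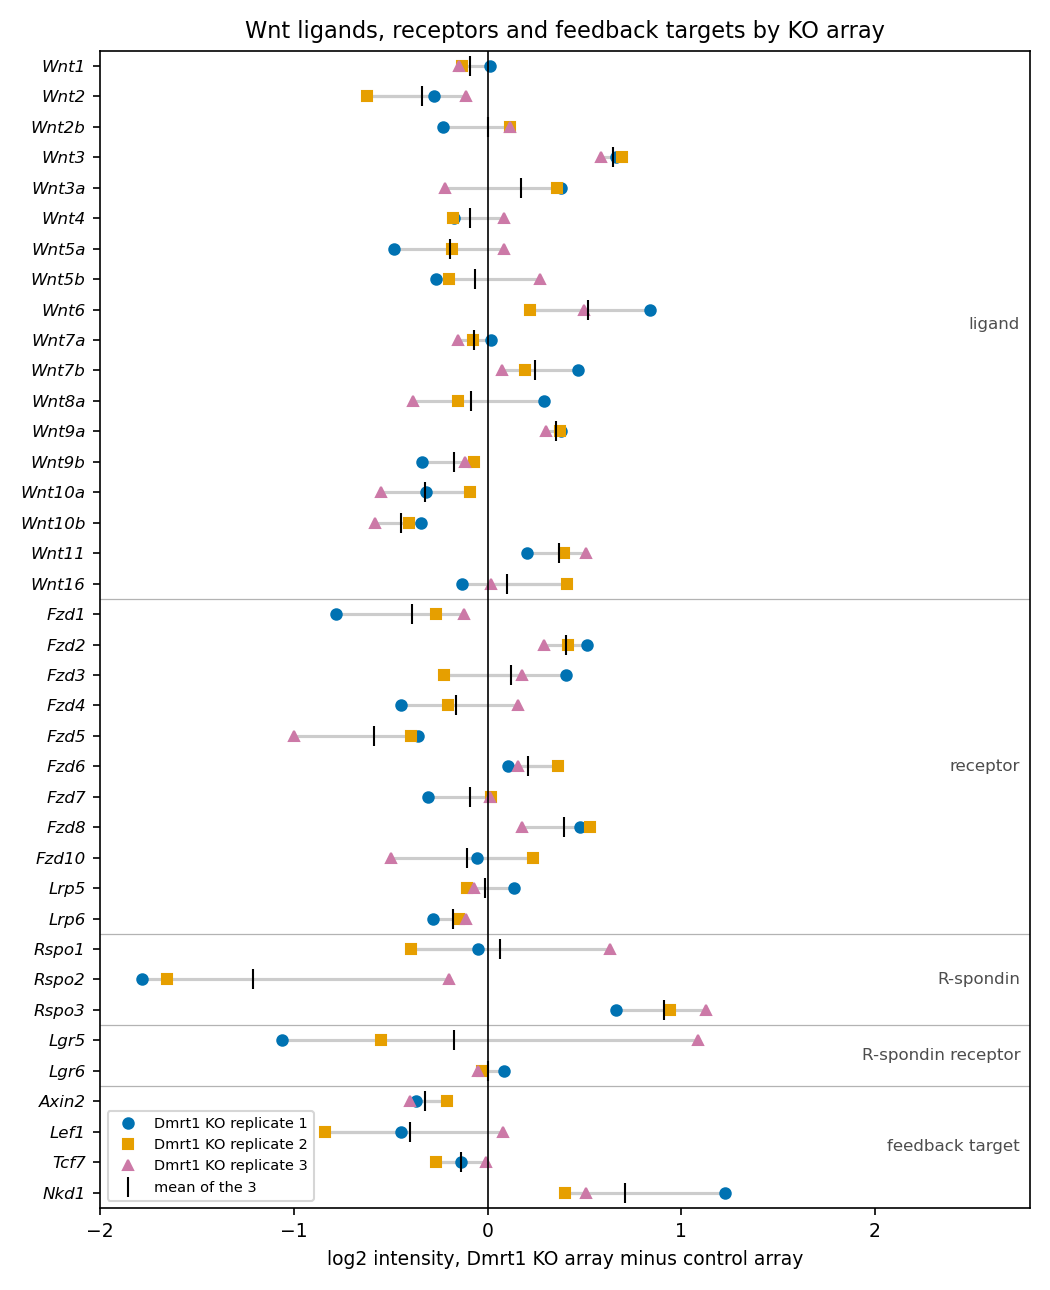
Difference from the control array in log2 intensity (x axis) of each measured member (rows, by role) in Dmrt1 KO replicates 1, 2 and 3 (circles, squares and triangles), with the mean of the 3 as a vertical tick. Most points lie within 0.5 of 0. Rspo2 is far below 0 in replicates 1 and 2 but at -0.20 in replicate 3, Rspo3 and Wnt3 are above 0 in all 3, and Lgr5 spans -1.06 to 1.09.

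Among the Wnt ligands, Wnt3 had the largest difference. Wnt3 (NM_009521), which is needed for gastrulation, was at 7.35 in the control and at 8.02, 8.04 and 7.94 in the knockouts. All 3 knockout arrays lay above the control and within 0.11 of each other. The difference was 0.65 ± 0.25, a 1.57-fold higher level, and limma gave it an adjusted p of 0.637 (unadjusted p = 0.0276), short of the threshold. The table holds no background values, and Wnt3 is 1 of the 6 members among the dimmest 25% of all transcripts, with an intensity of 163 in the control, so it is not known whether this level lies above background. The others are Wnt1, Wnt8a, Wnt10a, Wnt10b and Wnt16.

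Wnt6, Wnt9a, Wnt11 and Wnt7b were also higher in every knockout array than in the control, by less. Wnt6, an epithelial ligand of the kidney tubule, was at 11.02 in the control and at 11.86, 11.24 and 11.52 in the knockouts, a difference of 0.52 ± 0.30. Wnt9a, a ligand of joint formation, was at 9.62 in the control, lay above that by 0.38, 0.38 and 0.30 in the knockouts, and differed by 0.35 ± 0.25. The knockout arrays agree closely for Wnt9a and spread over 0.62 for Wnt6. Wnt11, which acts in ureteric branching, was at 9.43 against 9.63, 9.82 and 9.94, and differed by 0.37 ± 0.26. Wnt7b, which acts in lung and kidney growth, was at 9.15 against 9.62, 9.35 and 9.23, and differed by 0.24 ± 0.27. None of the 4 passed, with adjusted p-values of 0.911 and above in limma's test.

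The ligands below the control in every knockout array were Wnt10b, Wnt2, Wnt10a and Wnt9b. Wnt10b, a ligand known to restrain fat cell formation, was at 6.60 in the control and at 6.26, 6.20 and 6.02 in the knockouts, a difference of -0.45 ± 0.26. Wnt2, a ligand of lung development, was at 8.54 against 8.26, 7.91 and 8.43, and differed by -0.34 ± 0.28. Wnt10a, a ligand of tooth and skin appendages, was at 6.93 against 6.61, 6.84 and 6.38, and differed by -0.32 ± 0.28. In each of these the nearest knockout array lay within 0.35 of the control. Wnt9b, which induces kidney tubules, was at 9.25 against 8.91, 9.18 and 9.13, a difference of -0.18 ± 0.26.

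Wnt4, the ligand of ovarian development, did not differ detectably. It was at 9.16 in the control and at 8.98, 8.98 and 9.24 in the knockouts, so the control lay inside the range of the knockouts. The difference was -0.09 ± 0.26 with a 95% interval of -0.67 to 0.49, and without replicate 3 it was -0.18. Wnt5a, a ligand that often signals without beta-catenin, was at 12.00 against 11.52, 11.82 and 12.09, and differed by -0.19 ± 0.29 (-0.33 without replicate 3). The control also lay inside the knockout range for its close relative Wnt5b (-0.06 ± 0.29) and for Wnt7a (-0.07 ± 0.25), a ligand of the female reproductive tract. For Wnt1 (-0.09), a ligand of midbrain development, Wnt3a (0.17, and 0.37 without replicate 3), a ligand of the embryonic tail and somites, Wnt2b (0.00), Wnt8a (-0.08) and Wnt16 (0.10), the control was likewise inside that range. By count, 5 of 18 ligands were above the control in all knockout arrays, 4 were below and 9 overlapped it, with a median difference of -0.07. The shares of 27.8% above and 22.2% below were near the 25.6% and 24.1% of all transcripts.

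Promoter windows from RefSeq (GRCm38.p6, 250 bases before to 50 bases after a start) were available for 28 of the 42 members, in 35 windows. They were searched on both strands for CTTTGAT, a sequence bound by Tcf/Lef factors, and for ACANTGT, the core of the element bound by Dmrt1, which is its own reverse complement. The Tcf/Lef letters were in windows of Wnt5b and Wnt11, and in 3.73% of all 32851 windows. The Dmrt1 letters were in windows of Wnt16 and Wnt5b, and in 7.54% of all windows. The 4 windows are shown because they are the only member windows that hold either motif. Capitals mark it, at base 29 of the Wnt16 window (chr6:22287977-22288276, plus strand), base 285 of one Wnt5b window (chr6:119467162-119467461, minus strand), base 180 of another Wnt5b window (chr6:119449337-119449636, minus strand) and base 200 of the Wnt11 window (chr7:98834862-98835161, plus strand), each read 5′ to 3′ on the gene's strand. The motifs do not overlap in any window.
Wnt16, Dmrt1 core: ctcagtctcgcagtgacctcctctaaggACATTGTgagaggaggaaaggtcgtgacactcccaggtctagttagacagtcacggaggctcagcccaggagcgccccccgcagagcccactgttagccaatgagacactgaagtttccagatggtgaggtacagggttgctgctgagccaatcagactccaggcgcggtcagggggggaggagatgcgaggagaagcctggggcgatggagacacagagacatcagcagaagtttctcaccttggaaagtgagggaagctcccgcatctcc
Wnt5b, Dmrt1 core: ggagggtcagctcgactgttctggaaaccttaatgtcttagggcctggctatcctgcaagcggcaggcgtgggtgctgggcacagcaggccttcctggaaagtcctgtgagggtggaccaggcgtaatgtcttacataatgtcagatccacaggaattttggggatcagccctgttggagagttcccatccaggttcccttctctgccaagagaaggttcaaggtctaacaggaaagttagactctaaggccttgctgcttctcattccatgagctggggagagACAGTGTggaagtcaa
Wnt5b, Tcf/Lef: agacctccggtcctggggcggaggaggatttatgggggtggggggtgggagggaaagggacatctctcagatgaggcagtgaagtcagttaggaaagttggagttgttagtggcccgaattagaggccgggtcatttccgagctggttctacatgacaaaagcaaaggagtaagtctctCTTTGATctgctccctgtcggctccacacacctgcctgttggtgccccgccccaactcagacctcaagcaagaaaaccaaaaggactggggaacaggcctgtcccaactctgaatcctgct
Wnt11, Tcf/Lef: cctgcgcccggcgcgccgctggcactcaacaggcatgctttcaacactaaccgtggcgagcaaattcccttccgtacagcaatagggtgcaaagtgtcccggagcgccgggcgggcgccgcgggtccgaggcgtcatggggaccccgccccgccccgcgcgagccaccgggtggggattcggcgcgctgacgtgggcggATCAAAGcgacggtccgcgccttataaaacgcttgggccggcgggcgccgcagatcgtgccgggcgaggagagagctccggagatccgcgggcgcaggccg

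None of these 3 genes passed the test. Wnt16, a ligand of bone, was at 7.28 in the control and at 7.14, 7.69 and 7.29 in the knockouts, a difference of 0.10 ± 0.29. Wnt5b was at 9.18 against 8.92, 8.98 and 9.45. A match of letters is a description of the window and not a binding site.

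Among the receptors, the difference from the control was lowest for Fzd5 and highest for Fzd2. Fzd5 (NM_022721), a Frizzled of intestinal and yolk sac tissue, was at 9.71 in the control and at 9.35, 9.32 and 8.71 in the knockouts. All 3 knockout arrays were below the control, with replicate 3 the lowest. The difference was -0.58 ± 0.31 (limma, adjusted p = 0.882). Without replicate 3 it was -0.38. Fzd1, a Frizzled of the beta-catenin pathway, was at 13.34 against 12.56, 13.08 and 13.22, and differed by -0.39 ± 0.31 (-0.19 without replicate 1). Lrp6, the main Wnt co-receptor, was at 13.74 against 13.46, 13.59 and 13.63, and differed by -0.18 ± 0.25.

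Fzd2, Fzd8 and Fzd6 were above the control in all 3 knockout arrays. Fzd2, which also binds Wnt5a, was at 11.70 in the control and at 12.21, 12.11 and 11.99 in the knockouts, a difference of 0.41 ± 0.26. Fzd8 was at 10.60 against 11.08, 11.13 and 10.78, and differed by 0.39 ± 0.27. Fzd6, which acts in hair patterning and planar polarity, was at 9.72 against 9.83, 10.08 and 9.88, and differed by 0.21 ± 0.26. These 3 were above the control by at most 0.53 in any array. Fzd3, a receptor of axon guidance, was at 12.92 against 13.32, 12.69 and 13.09, Fzd4, the Norrin receptor of blood vessels, at 10.55 against 10.11, 10.34 and 10.71, and Fzd7, a receptor of intestinal stem cells, at 12.75 against 12.44, 12.77 and 12.76. Fzd10 was at 11.20 against 11.15, 11.44 and 10.70, and the co-receptor Lrp5 at 12.64 against 12.78, 12.54 and 12.57. For these last 5 the control lay inside the range of the knockout arrays. By count, 3 of 11 measured receptors were below the control in all knockout arrays, 3 were above and 5 overlapped it, and the median difference was -0.09. Each share was 27.3%, near the 24.1% below and 25.6% above of all transcripts.

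The R-spondin genes Rspo2 and Rspo3 had the largest differences of the measured members, in opposite directions, while Rspo1 hardly differed. Rspo2 (NM_172815), which amplifies Wnt signalling in limb and lung, was at 9.53 in the control and at 7.75, 7.88 and 9.33 in the knockouts. Replicates 1 and 2 were far below the control, and replicate 3 was within 0.20 of it. The intensities of replicates 1 and 2 were 216 and 236, and it is not known whether they lie above background, so the size of a fold is uncertain. Leaving out replicate 3, the knockout array closest to the control for Rspo2, enlarges the difference and narrows the spread, so that fit is no independent check. Without replicate 1 the difference was -0.93, and without replicate 2 it was -0.99. The difference over all 3 arrays was -1.21 ± 0.52, a 2.32-fold lower level that did not pass (limma, adjusted p = 0.737, unadjusted p = 0.0415). Without replicate 3, the difference was -1.72 ± 0.27, a 3.29-fold lower level, and it passed (limma, adjusted p = 0.0205). In that fit 1 of 38 members was called lower, against 0.558% of all transcripts, and 1 was at least 2-fold lower in both remaining knockout arrays, against 1.08% of all transcripts. The adjusted p ran from 0.0205 to 0.927 over all alternatives.

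Rspo3 (NM_028351), an R-spondin of blood vessel and placenta development, was at 7.96 in the control and at 8.62, 8.91 and 9.09 in the knockouts. All 3 knockout arrays lay above the control, by 0.66 to 1.13. The control intensity was 249, and it is not known whether it lies above background, so the size of the fold is uncertain. The difference was 0.91 ± 0.28, a 1.88-fold higher level with a 95% interval of 0.29 to 1.53, and it did not pass (limma, adjusted p = 0.374, unadjusted p = 0.00840). Without replicate 3 it was 0.80 (adjusted p = 0.387), and over the alternatives the adjusted p ran from 0.271 to 0.566. Rspo1 (NM_138683), the R-spondin of ovarian development, was at 10.38 against 10.33, 9.98 and 11.01, with the control inside the knockout range. Its difference was 0.06 ± 0.37, and without replicate 3 it was -0.22.

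Lgr5 had the widest spread among the knockout arrays. Lgr5 (NM_010195), an R-spondin receptor known as a stem cell marker, was at 8.93 in the control and at 7.87, 8.38 and 10.02 in the knockouts. Replicates 1 and 2 were below the control and replicate 3 was above it by 1.09, so the mean difference of -0.18 ± 0.63 describes no single array. Without replicate 3 it was -0.81 ± 0.30 (limma, adjusted p = 0.436). Lgr6, a related receptor of skin and hair follicles, was at 9.51 against 9.60, 9.48 and 9.46, a difference of 0.00 ± 0.25.

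The standard deviation among the 3 knockout arrays was above the 90th percentile of all transcripts for 5 members (13.2%). They were Lgr5, with an SD of 1.12 at percentile 99.8, Rspo2, with 0.88 at percentile 99.4, Rspo1, with 0.52 at percentile 95.3, Lef1, with 0.46 at percentile 92.6, and Nkd1, with 0.45 at percentile 91.9. In 4 of the 5 the highest knockout array was replicate 3, and in Nkd1 it was replicate 1. At the other end, Wnt9a and Wnt3 had SDs of 0.05, at percentiles 3.5 and 4.9.

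**Figure D2:**
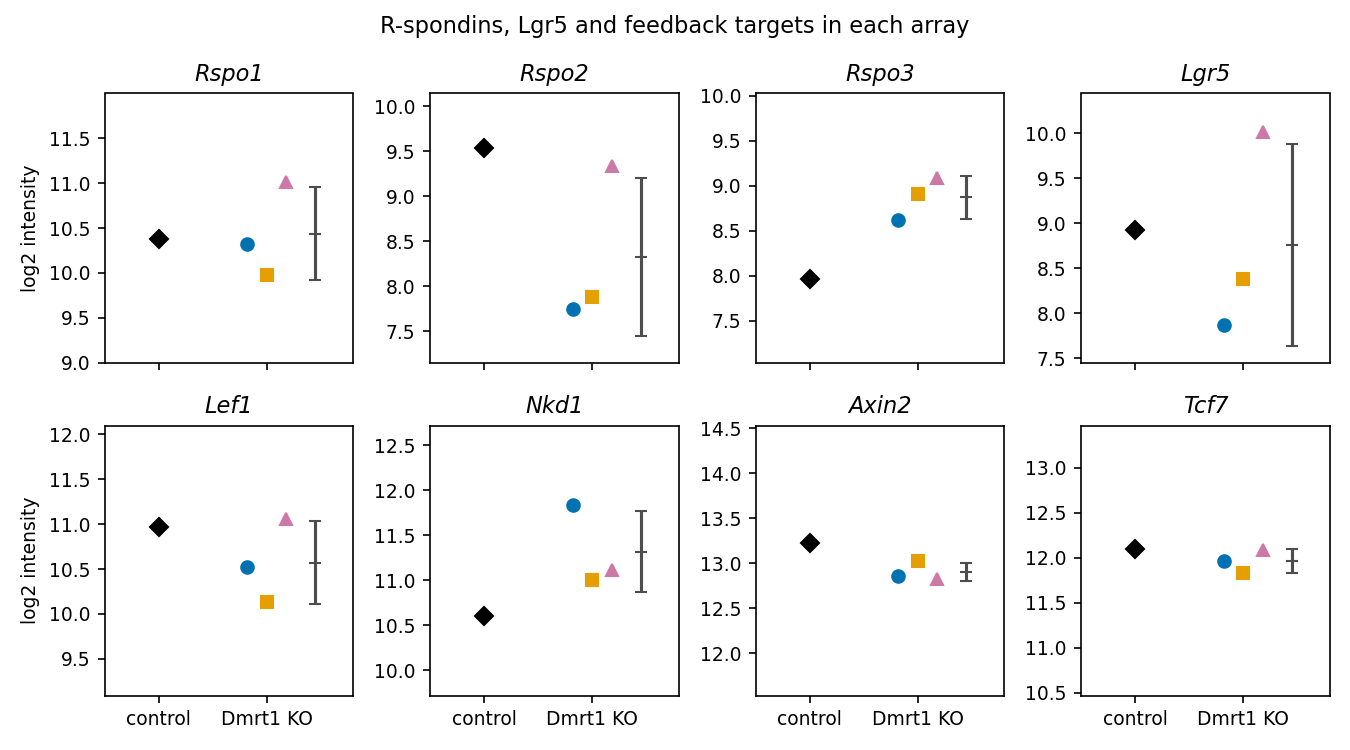
Log2 intensity (y axis, each panel spanning the same 3 units) in the control (black diamond) and in Dmrt1 KO replicates 1 (circle), 2 (square) and 3 (triangle), with the mean ± SD of the 3 knockouts to the right. Among the 3 knockout arrays, replicate 3 is the highest for Rspo1, Rspo2, Lgr5 and Lef1, while Rspo3 and Nkd1 lie above the control in all 3 and Axin2 below it.

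The feedback targets lay on both sides of the control and none passed. Axin2 (NM_015732), a scaffold of the complex that degrades beta-catenin and the usual readout of Wnt activity, was at 13.23 in the control and at 12.86, 13.02 and 12.83 in the knockouts. All 3 knockout arrays were below the control by 0.21 to 0.40. The difference was -0.32 ± 0.26, a 1.25-fold lower level (limma, adjusted p = 0.987), with a 95% interval of -0.89 to 0.24. Nkd1 (NM_027280), an inhibitor that binds Dishevelled, was at 10.60 against 11.83, 11.00 and 11.11. All 3 knockout arrays were above the control, and replicate 1 was the highest. Its difference was 0.71 ± 0.34, a 1.64-fold higher level (limma, adjusted p = 0.823), and without replicate 1 it was 0.45.

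Lef1 (NM_010703), a nuclear partner of beta-catenin that Wnt signalling also induces, was at 10.97 in the control and at 10.52, 10.13 and 11.05 in the knockouts. Replicates 1 and 2 were below the control and replicate 3 was slightly above it. The difference was -0.40 ± 0.35, and without replicate 3 it was -0.64 ± 0.29 (limma, adjusted p = 0.563). Tcf7, the related factor of T cells, was at 12.10 against 11.96, 11.83 and 12.09, and differed by -0.14 ± 0.26. Of the 4 targets 2 were below the control in all knockout arrays, 1 was above and 1 overlapped it, and the median difference was -0.23. Over all transcripts 24.1% were below and 25.6% above, and 4 genes are too few to set against these shares.

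**Figure D3:**
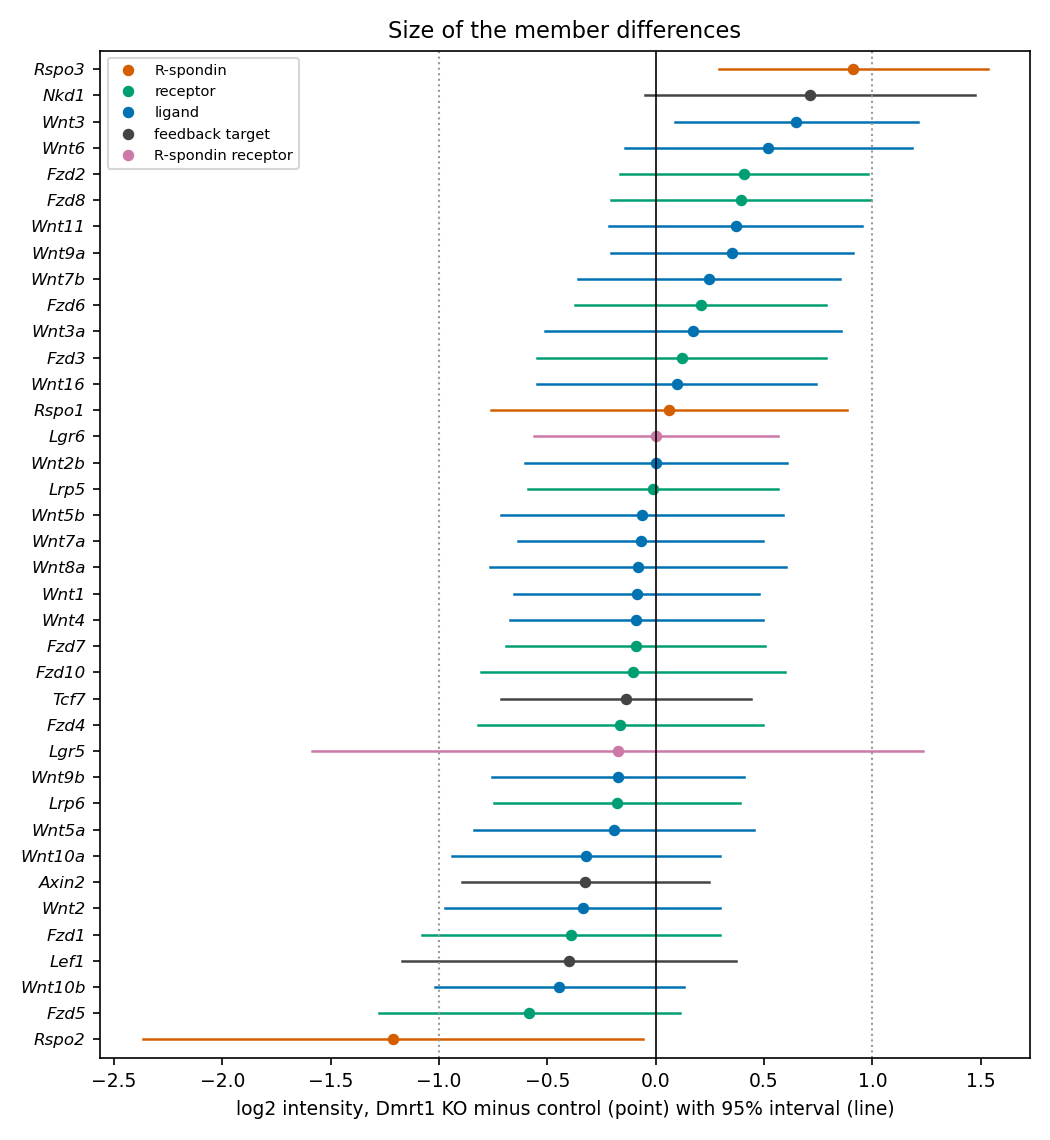
Knockout minus control difference in log2 intensity (x axis) of the 38 measured members, sorted, as a point with its 95% limma interval as a line, coloured by role; dotted lines mark a 2-fold difference. The intervals of Rspo2, Rspo3 and Wnt3 lie off 0 before adjustment, and 28 of 38 intervals lie between the dotted lines.

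The rest of the pathway was described through 7 lists with 67 measured genes. Of these, 1 gene fell, 1 rose and 65 did not pass, where 0.499% of all transcripts were called lower and 0.156% higher. The lists were chosen with earlier results of these data known, so these shares are a description and not a test. Both calls were secreted antagonists. Frzb, which binds Wnt proteins outside the cell, was at 10.08 in the control and at 6.10, 6.12 and 6.46 in the knockouts, and fell 14.5-fold (limma, adjusted p = 0.000199). Wif1, another Wnt-binding inhibitor, was at 10.98 against 13.19, 13.33 and 13.07, and rose 4.65-fold (adjusted p = 0.00314). The knockout intensities of Frzb were 68.4, 69.4 and 88.3, and it is not known whether they lie above background, so the size of its fold is uncertain. The knockout arrays agree for both genes, and both calls were made without replicate 3 as well. The other 12 measured antagonists did not pass, and the median of the 14 was 0.19.

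The 2 genes of Wnt secretion were at opposite sides of the control. Wls, the carrier that takes Wnt proteins to the cell surface, was at 9.26 in the control and at 10.07, 10.12 and 10.64 in the knockouts, and differed by 1.01 ± 0.30 (limma, adjusted p = 0.337, unadjusted p = 0.00692). Porcn, the acyltransferase that attaches the lipid to Wnt proteins, was at 11.83 against 11.04, 11.06 and 11.13, and differed by -0.76 ± 0.25 (adjusted p = 0.463, unadjusted p = 0.0132). All 3 knockout arrays were above the control for Wls and below it for Porcn, and neither passed.

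In the remaining lists no gene passed over all transcripts. Among 9 nuclear factors, with a median of -0.12, the co-repressor Tle2 was at 8.47 in the control and at 9.57, 9.13 and 9.48 in the knockouts (0.93 ± 0.28, limma, adjusted p = 0.357). Its relative Tle3 differed by -0.55 ± 0.28. Among 12 further target genes, with a median of 0.05, the receptor gene Tnfrsf19 was at 11.01 against 11.99, 11.53 and 11.73 (0.75 ± 0.28, adjusted p = 0.581), and Id2, an inhibitor of helix-loop-helix factors, differed by 0.46 ± 0.26. Tle2 and Tnfrsf19 were the only genes of these 5 lists with an unadjusted p under 0.05. Among 13 genes of the destruction complex and the transducers, with a median of 0.11, Btrc, a ubiquitin ligase subunit, differed by 0.41 ± 0.25 and Dvl1, a Dishevelled protein, by -0.59 ± 0.37. Among 10 planar polarity genes, with a median of -0.01, Daam2 differed by -0.58 ± 0.29 and Celsr1 by 0.43 ± 0.28. Among 7 further receptors, with a median of -0.03, Ryk, a Wnt-binding receptor related to kinases, differed by -0.38 ± 0.26 and Kremen2, a receptor for Dkk proteins, by 0.32 ± 0.29.

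**Figure D4:**
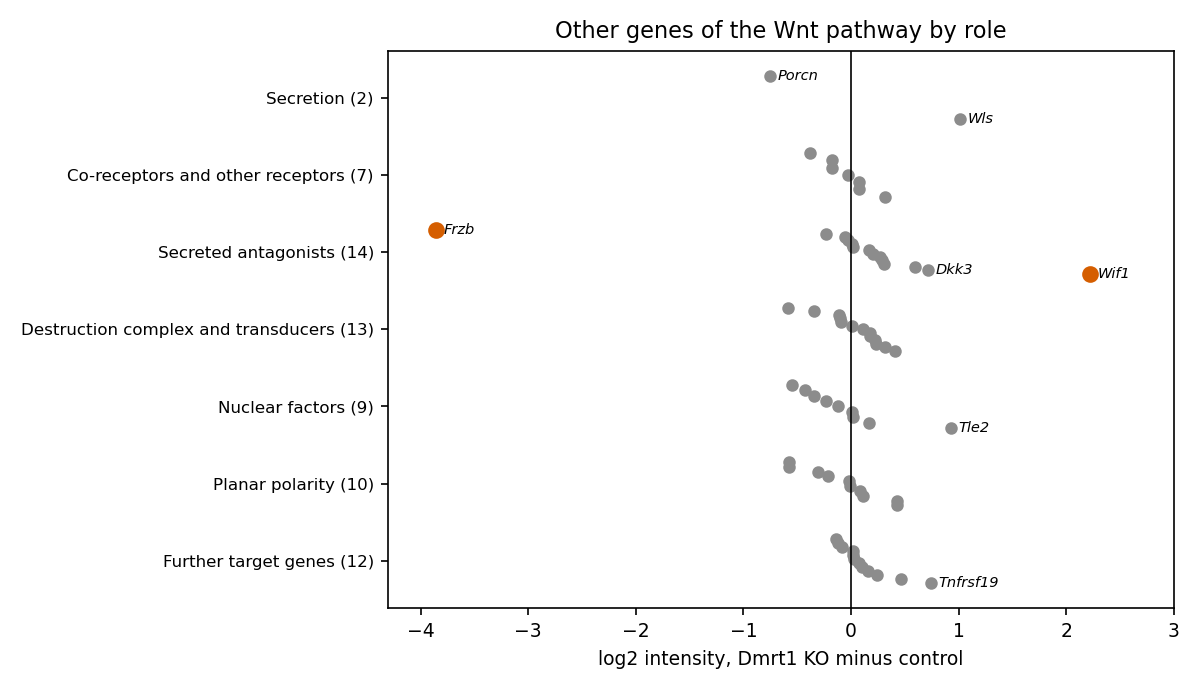
Knockout minus control difference in log2 intensity (x axis) of 67 further Wnt pathway genes, by role with the number measured; orange points passed limma's test and grey points did not, and genes over 0.7 in size are named. Frzb at -3.86 and Wif1 at 2.22 stand apart from all others.

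Whole-testis RNA does not separate cell types, and fewer cells of a type cannot be told apart from less RNA per cell. Markers of the testis cell types were measured in all arrays. In the Sertoli list 2 of 9 measured markers fell, Cst9 and Cldn11, where 0.499% of all transcripts were called lower. The marker lists were chosen with earlier results of these data known, so this share and those below are descriptions and not tests. The list's mean log2 level was 13.45 in the control and 12.70 to 12.89 in the knockouts. Cst9, at -2.89, and Cldn11, at -1.72, had the largest falls and weigh most on this mean. Fshr, Clu and Sox9, at -1.12, -0.62 and -0.56, were below the control in all knockout arrays but did not pass. Wt1, Gata4 and Dhh, at 0.42, 0.51 and 0.39, were above the control in all knockout arrays. Amh was at -0.05, and its replicate 2 lay only 0.002 below the control. By count, 6 of the 9 were below the control in all knockout arrays and 3 were above, against 24.1% and 25.6% of all transcripts. In the other lists limma called 0 of 46 markers, where 0.499% of all transcripts were called lower and 0.156% higher. Over all transcripts 3.27% were lower and 3.15% higher at an unadjusted p under 0.05, which 11 of the 46 markers met. Without replicate 3, 1 of them passed, the adipose marker Lpl, at 1.996 ± 0.35 (limma, adjusted p = 0.0406), against 1.71 ± 0.41 with all arrays (adjusted p = 0.164). The mean was 10.70 against 10.55 to 10.70 for peritubular myoid genes, 12.75 against 12.60 to 13.31 for Leydig genes, 13.62 against 13.62 to 13.89 for germ cell genes and 12.26 against 12.42 to 12.55 for endothelium. It was 10.68 against 10.99 to 11.30 for macrophages, 14.18 against 14.22 to 14.45 for mesenchyme, 8.59 against 9.13 to 9.42 for adipose genes and 9.12 against 8.95 to 9.24 for ducts, a list that holds Wnt7a. Replicate 3, in which Rspo1, Lgr5 and Lef1 were highest, also had the highest macrophage, mesenchyme and endothelium means of the 4 arrays. The same array had the lowest peritubular myoid, germ cell and duct means of the 4, at 10.55, 13.62 and 8.95. Single markers of the first 3 lists were divided. Csf1r, Adgre1, Ctss, Pecam1, Tek, Kdr, Pdgfra, Dcn and Lum were highest in replicate 3. C1qa, C1qc and Cdh5 were highest in replicate 2, Col1a1 in replicate 1 and Tcf21 in the control. The part of these cells in the Wnt values was not tested.

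The list of granulosa genes had a mean of 9.67 in the control and 9.61 to 9.83 in the knockouts. In the control testis Amhr2 was at 13.61, the highest of the list, and Nr0b1 at 9.52. The list therefore does not mark granulosa cells alone, and its mean is no measure of them. Of the 6 genes of the list, 0 passed limma's test. Over all transcripts 3.27% were lower and 3.15% higher at an unadjusted p under 0.05, which 2 of the 6 granulosa genes met. These were Nr0b1 and Cyp19a1, the aromatase gene. Nr0b1 was at -1.35 ± 0.26 and at least 2-fold lower in every knockout array (limma, adjusted p = 0.0531). Cyp19a1 was at 0.72 ± 0.30, with intensities of 56.0 in the control and 71.8, 99.9 and 110.6 in the knockouts. It is not known whether these intensities lie above background, so neither expression of Cyp19a1 nor the size of its difference is certain. Foxl2, which keeps ovarian identity, was at 8.53 in the control and at 9.54, 8.97 and 8.50 in the knockouts, so replicate 1 was highest and replicate 3 matched the control. Fst, the follistatin gene, was at 9.96 against 9.64, 9.60 and 10.26, a difference of -0.13 ± 0.31 (-0.34 without replicate 3). As with Rspo1, the highest Fst array was knockout replicate 3.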

How the data were processed

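RNA was measured on one-colour NimbleGen expression arrays labelled with Cy3. The authors deposited 1 intensity per RefSeq transcript and array on a linear scale, made with RMA per the submitters' processing notes; version and background settings are not given in the sources used here. Values ran from 23.9 to 65156, with array medians of 1005 to 1011. The number of arrays limits the precision. Here log2 was taken and transcripts were matched, without version, to RefSeq symbols (GRCm38.p6), which named 17780 (69.4%). A gene was represented by its transcript with the highest mean. All 25631 transcripts were fitted in R 4.3.3 by limma 3.58.1 (functions lmFit and eBayes; knockout minus control, two-sided, 2 residual and 7.97 prior degrees of freedom), Benjamini-Hochberg adjusted over the whole table at 0.05. The fit was tested on simulated data. In these the control was made to vary as the knockouts do, so they do not test that assumption. All 42 members are named. Of each pathway list, genes that passed are named, or else the 2 with the smallest p, besides Dmrt1, Fst and Foxl2; other marker genes named were chosen after their values were seen. Members and lists were chosen with earlier results of these data known. Alternative settings dropped 1 knockout array at a time, repeated quantile normalisation, centred the arrays, added an offset of 100, removed dim transcripts, averaged transcripts, or changed the variance prior or the threshold.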

Additional observations from a re-analysis of the deposited data

How the results depend on the processing

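No paired analysis was possible because there was 1 control array and the labels give no pairing. Every alternative kept that control, so none varies it. Leaving out 1 knockout array gave 0 to 1 members called lower and 0 to 1 members at least 2-fold lower in every knockout array. Both counts of 1 were Rspo2 without replicate 3, the 1 member difference that passed in any alternative. The counts of members called higher or at least 2-fold higher stayed at 0 in all alternatives run for them, and 2 pathway genes were called in each alternative run for them. Of 412 recomputed member differences, 16 changed sign, in 11 members. Without 1 knockout array, the differences ran from -0.057 to 0.12 for Wnt2b, -0.23 to 0.037 for Wnt5b, -0.27 to 0.067 for Wnt8a, -0.058 to 0.21 for Wnt16, -0.023 to 0.29 for Fzd3, -0.15 to 0.016 for Fzd7, -0.28 to 0.090 for Fzd10, -0.088 to 0.034 for Lrp5, -0.22 to 0.29 for Rspo1, -0.81 to 0.27 for Lgr5 and -0.040 to 0.029 for Lgr6. Wnt2b was also at -0.0015 after quantile normalisation again. The cause was not tested. The other 27 members kept their sign in each alternative that held them; the 6 dimmest members have no value once the dimmest 25% of transcripts are removed. With no background values, signal over background limits what can be read from dim members.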

Other observations

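Of the measured members, 4 pairs of Wnt genes are direct neighbours among the protein-coding genes of the GRCm38.p6 annotation. The values of such a pair did not share a sign in general. On chromosome 1, Wnt6 was at 0.52 ± 0.30 and Wnt10a at -0.32 ± 0.28, and on chromosome 11 Wnt3 was at 0.65 ± 0.25 and Wnt9b at -0.18 ± 0.26. Wnt3a and Wnt9a, also on chromosome 11, were at 0.17 ± 0.31 and 0.35 ± 0.25, and Wnt10b and Wnt1 on chromosome 15 were at -0.45 ± 0.26 and -0.09 ± 0.25. These are limma differences of log2 intensity, knockout minus control, with their SE; the differences within a pair were not tested, and no member passed.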
